A study of Mus musculus with 6 samples.

Results

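The 9 genes described here encode the mouse proteins that receive a Hedgehog signal at the cell surface and pass it to the nucleus: the coreceptors Gas1, Boc and Cdon, the receptor Ptch1, the signal transducer Smo, the cytoplasmic inhibitor Sufu and the transcription factors Gli1, Gli2 and Gli3. They were taken by gene symbol, as 9 of the 54752 genes in the deposited count table. The list was chosen on its pathway but also from measured values, because the low level of Gas1 under TGF-β1 relative to vehicle was already known when it was drawn up. Differences of the 9 genes from vehicle, calls included, are therefore a description, given with no p-value, and for these genes the test is kept for BI6727 against DMSO. RNA was sequenced, after depletion of rRNA, from NIH/3T3 cells, an established fibroblast line of mouse embryonic origin, in 3 groups of 2 libraries. The vehicle group received PBS, the DMSO group received 1 ng/ml TGF-β1 with DMSO, and the BI6727 group received 1 ng/ml TGF-β1 with 5 μM BI6727, an inhibitor of the mitotic kinase PLK1, all for 72 h. The sources disagree on the control, which is PBS in the sample labels, medium alone in the study's methods and DMSO in one of its figure legends, and the labels are followed here. By the labels no library had DMSO without TGF-β1, so the part of DMSO and the part of TGF-β1 in a difference from vehicle cannot be told apart. Both other comparisons share libraries with the first, the vehicle pair in one and the DMSO pair in the other.

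Hedgehog ligands are secreted lipid-modified proteins. Without ligand, PTCH1 keeps SMO inactive and SUFU holds the GLI proteins in the cytoplasm, where GLI2 and above all GLI3 can be cut to repressors. Ligand binds PTCH1 together with GAS1, BOC or CDON, SMO gathers in the primary cilium, and GLI2 and GLI3 become activators. GLI1, which acts as an activator, and PTCH1, which limits the response, are themselves classical targets of the pathway. Gas1 was first described as a growth arrest-specific gene of resting fibroblasts, and NIH/3T3 is a standard line for assays of Hedgehog signalling. Transcripts were measured here, and neither proteins nor pathway activity.

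RefSeq promoters on GRCm38.p6, the mm10 assembly, covering 250 bases before and 50 after the annotated start, matched 7 of the 9 genes. Boc and Gli1 had no entry. The promoters of Gas1, Cdon and Gli2 are printed because these were the 3 genes past the threshold for a lower level than in vehicle. They lie at chr13:60177486-60177785 on the minus strand for Gas1, at chr9:35451826-35452125 on the plus strand for Cdon and at chr1:119053570-119053869 on the minus strand for Gli2. The Cdon window lies inside the annotated Cdon gene, at a RefSeq start downstream of the Gencode one. The Gas1 window lies wholly upstream of the counted Gencode gene, which begins at 60177365 on the minus strand, and does not hold that start. Each is written 5′ to 3′, with matches in capitals to the GLI core CCACCC or to the SMAD box CAGAC on either strand. GLI factors and the SMAD proteins of TGF-β signalling are known to bind such letters.
Gas1 promoter: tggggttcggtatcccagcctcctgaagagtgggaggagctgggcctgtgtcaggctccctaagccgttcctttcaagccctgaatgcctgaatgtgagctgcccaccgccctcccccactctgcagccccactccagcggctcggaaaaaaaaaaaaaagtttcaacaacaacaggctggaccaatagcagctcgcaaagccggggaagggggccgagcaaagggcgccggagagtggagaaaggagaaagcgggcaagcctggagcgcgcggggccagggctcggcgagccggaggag
Cdon promoter: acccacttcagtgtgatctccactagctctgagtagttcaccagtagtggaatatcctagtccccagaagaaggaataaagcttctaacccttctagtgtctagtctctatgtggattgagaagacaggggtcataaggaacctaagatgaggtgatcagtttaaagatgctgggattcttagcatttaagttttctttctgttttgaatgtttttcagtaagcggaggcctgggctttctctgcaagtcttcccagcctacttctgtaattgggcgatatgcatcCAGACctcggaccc
Gli2 promoter: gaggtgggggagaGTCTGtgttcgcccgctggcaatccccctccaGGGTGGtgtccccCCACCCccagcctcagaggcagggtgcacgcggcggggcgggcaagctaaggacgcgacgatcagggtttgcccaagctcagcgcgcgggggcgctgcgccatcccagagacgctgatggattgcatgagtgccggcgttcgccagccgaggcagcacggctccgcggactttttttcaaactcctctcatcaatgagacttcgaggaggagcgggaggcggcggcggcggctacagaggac
The Gas1 promoter held neither motif, and the Cdon promoter held 1 SMAD box that begins at base 37, with the start counted as base 1. The Gli2 promoter held 2 GLI cores and 1 SMAD box, all upstream. Among the 7 promoters, 3 held a GLI core (Smo, Gli2 and Gli3), against 31.5% of all 32851 mouse promoters of this length, and 5 held a SMAD box (Cdon, Ptch1, Smo, Gli2 and Gli3), against 49.6%. The full GLI site GACCACCCA, which contains the core, was in none of the 7 and in 0.253% of all promoters, and the SMAD palindrome GTCTAGAC was in none of the 7 and in 0.213%. These matches describe letters in a window and say nothing of binding.

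The libraries held between 18362378 and 24452153 counts on genes. Levels are given as normalized CPM, counts divided by the TMM-scaled library total on the usual CPM scale, and all 9 genes were among the 14604 with enough counts to be tested. Called genes were those with more than a 2-fold change and, in edgeR's quasi-likelihood test, a p-value under 0.01 after Benjamini-Hochberg adjustment. Acta2, the smooth muscle actin of myofibroblasts, rose by 2.31 on the log2 scale in the DMSO group against vehicle, past the threshold. The 10 fibroblast markers summed to between 8699 and 11461 normalized CPM in every library. Of these, 1 was called lower with DMSO and 2 with BI6727 against vehicle, and 0 were called higher in either. Of all tested genes 3.23% and 3.71% were called lower. With DMSO 5 of the 10 had a positive fitted value and 5 a negative one, and with BI6727 4 and 6. The markers called are given by value. Pdgfra, a receptor for platelet-derived growth factor, had 276 and 260 normalized CPM in vehicle and 95.2 and 52.9 in the DMSO group, with a log2 fold change of -1.86, and its value with BI6727 was -1.78. The related receptor Pdgfrb was called with BI6727, at -1.18, and not with DMSO, at -0.72. The summed levels of epithelial (6 genes), endothelial (5 genes) and leukocyte (6 genes) markers were at most 3.72 normalized CPM, and 1, 2 and 3 of these markers had 0 counts in every library. The epithelial sum was 0.354 to 0.491 normalized CPM in vehicle and 1.98 to 2.24 in the DMSO group. The endothelial sum was 0.303 to 0.892 in vehicle and 2.82 to 3.72 in the DMSO group. The part of these markers in the values below was not tested. The DMSO libraries stood apart from each other: replicates differed by an SD over genes of 0.563 (log2) in that group, 0.447 in vehicle and 0.449 in the BI6727 group. In the DMSO pair this difference correlated with the log2 of gene length across genes (Pearson r = 0.384), against -0.049 in vehicle and -0.066 in the BI6727 group. Values without each DMSO library are given below for that reason.

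Gas1 showed by far the lowest level under TGF-β1 relative to vehicle among the 9 genes. It encodes a GPI-anchored surface protein that binds Hedgehog ligand, and has 1 exon on chromosome 13 (60174405 to 60177365 in mm10, minus strand, ENSMUSG00000052957.8). The vehicle libraries held 12196 and 10527 Gas1 counts, or 616 and 470 normalized CPM. The DMSO libraries held 452 and 339 counts, or 21.6 and 15.9 normalized CPM, and the BI6727 libraries held 244 and 333 counts, or 13.4 and 13.6 normalized CPM. All 4 libraries with TGF-β1 were far below both vehicle libraries, with no overlap. The mean was 28.9-fold lower in the DMSO group than in vehicle (log2 fold change -4.86, SE 0.20, n = 2 per group), and 40.2-fold lower in the BI6727 group (log2 fold change -5.33, SE 0.20). Only 18 of the 14604 genes had a lower fitted log2 fold change in the DMSO group. In bulk RNA, fewer cells with a transcript and less of it per cell cannot be told apart. The opposite-strand gene Gm48488 overlaps 19.9% of the exonic length of Gas1. Whether counting used strand is not given in the sources used here, and Gm48488 had 68 counts over the 6 libraries against 24091 for Gas1. Without DMSO replicate 1 or replicate 2 the log2 fold change of the DMSO group was -5.09 or -4.64.

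The other coreceptors, Boc and Cdon, are immunoglobulin and fibronectin repeat proteins of one family. Boc has 19 exons on chromosome 16 (44485049 to 44558897 in mm10, minus strand) and Cdon has 23 on chromosome 9 (35421128 to 35507652, plus strand). Cdon had 21.5 and 18.5 normalized CPM in vehicle, 9.16 and 5.64 in the DMSO group, and 5.40 and 7.40 in the BI6727 group. Both treated groups lay below vehicle without overlap, and they overlapped each other. Its log2 fold change from vehicle was -1.43 (SE 0.26) with DMSO and -1.63 (SE 0.26) with BI6727, past the threshold in both. The DMSO value was -1.82 without replicate 1 of that group and -1.11 without replicate 2, and the call was lost without either vehicle library (-1.32 and -1.54), without either BI6727 library (-1.43 in both) and with only the 2 groups in the fit (-1.42). The BI6727 call was lost without either vehicle library (-1.52 and -1.74) or either BI6727 library (-1.43 and -1.89). Boc was 1 of the 2 lowest genes by level, with 78 and 67 counts in vehicle, 61 and 40 in the DMSO group, and 20 and 34 in the BI6727 group. These counts gave 3.94 and 2.99 normalized CPM in vehicle, 2.91 and 1.88 in the DMSO group, and 1.10 and 1.39 in the BI6727 group. The 3 groups did not overlap for Boc, and the DMSO and vehicle values nearly touched. The log2 fold change from vehicle was -0.53 (SE 0.34) with DMSO and -1.46 (SE 0.36) with BI6727, and neither was called. Without DMSO replicate 1 the DMSO value was -0.88, and without replicate 2 it was -0.24. With only the 2 groups compared, the BI6727 value of -1.46 was past the threshold, and leaving out DMSO replicate 1 or replicate 2 also took it past.

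**Figure D1:**
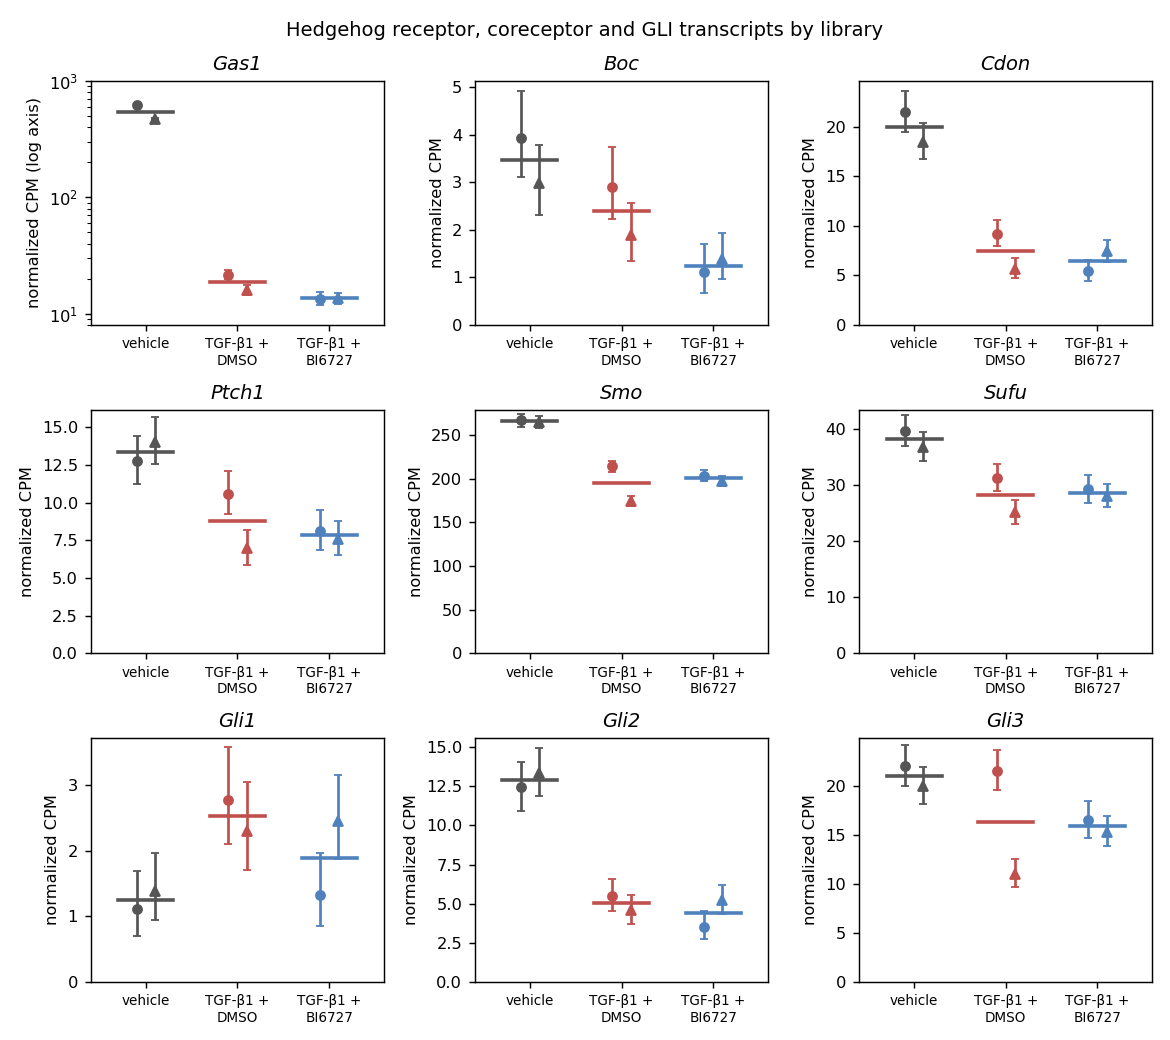
Normalized CPM of each gene (y axis, logarithmic for Gas1 and linear from 0 for the others) in the 3 groups, with circles for replicate 1, triangles for replicate 2, lines for the mean of 2 libraries and bars for the 95% Poisson interval of the count, which covers counting error only. Gas1 went from 616 and 470 in vehicle to between 13.4 and 21.6 in the libraries with TGF-β1, while Gli1 was the gene with its highest mean in the DMSO group.

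Ptch1, the receptor that restrains SMO and a target of the pathway, was measured at 12.7 and 14.1 normalized CPM in vehicle, 10.6 and 6.96 in the DMSO group, and 8.10 and 7.60 in the BI6727 group. All libraries with TGF-β1 were below vehicle. The gene has 27 exons on chromosome 13 (63508328 to 63573598, minus strand). The log2 fold change was -0.61 (SE 0.22) with DMSO and -0.77 (SE 0.22) with BI6727, not called in either. Without DMSO replicate 1 the DMSO value was -0.95, and without replicate 2 it was -0.33. Smo, the transducer, had 266 and 265 normalized CPM in vehicle, 214 and 175 in the DMSO group, and 203 and 197 in the BI6727 group. The treated libraries lay below vehicle, by -0.45 (SE 0.12) with DMSO and -0.41 (SE 0.12) with BI6727 on the log2 scale, under the 2-fold minimum. Smo lies on chromosome 6 (29735503 to 29761365, plus strand) and Sufu on chromosome 19 (46396896 to 46488804, plus strand). Sufu, which holds GLI proteins in the cytoplasm, showed a like pattern, with 39.6 and 36.8 normalized CPM in vehicle, 31.3 and 25.1 in the DMSO group, and 29.2 and 28.1 in the BI6727 group. Its log2 fold changes from vehicle were -0.44 (SE 0.14) and -0.42 (SE 0.14), and it was not called. The DMSO values of Smo and Sufu were both -0.61 without DMSO replicate 1, and -0.30 and -0.28 without replicate 2.

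The fitted changes of the 3 GLI genes from vehicle differed in direction, and only that of Gli2 was called. Gli1 lies on chromosome 10 (127329882 to 127341974, minus strand), Gli2 on chromosome 1 (118834132 to 119053619, minus strand) and Gli3 on chromosome 13 (15463235 to 15730026, plus strand). Gli2, the main activator downstream of SMO, had 12.4 and 13.4 normalized CPM in vehicle, 5.49 and 4.56 in the DMSO group, and 3.52 and 5.23 in the BI6727 group. Every treated library was less than 6 normalized CPM, below both vehicle libraries. The log2 fold change was -1.36 (SE 0.23) with DMSO and -1.55 (SE 0.23) with BI6727, past the threshold in both. It was -1.50 without DMSO replicate 1 and -1.22 without replicate 2. The call was lost without either vehicle library, where the DMSO value was -1.41 or -1.31 and the BI6727 value -1.60 or -1.49, and without BI6727 replicate 1 (-1.30). Gli3, the main repressor of the family, had 21.99 and 19.9 normalized CPM in vehicle, 21.5 and 11.01 in the DMSO group, and 16.5 and 15.3 in the BI6727 group. One DMSO library was at the vehicle level and the other below every other library, and the BI6727 pair lay below vehicle. The log2 fold change was -0.37 (SE 0.27) with DMSO and -0.40 (SE 0.27) with BI6727. One DMSO library set the direction of the former, which was -0.93 without replicate 1 and 0.05 without replicate 2.

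Gli1, the activator whose transcript serves as a readout of Hedgehog signalling, was the lowest of the GLI genes and the only one of the 9 with a positive fitted change from vehicle. Its counts were 22 and 31 in vehicle, 58 and 49 in the DMSO group, and 24 and 60 in the BI6727 group. The normalized CPM were 1.11 and 1.38 in vehicle, 2.77 and 2.30 in the DMSO group, and 1.32 and 2.45 in the BI6727 group. Both DMSO libraries were above both vehicle libraries, while 1 BI6727 library was at the vehicle level. The log2 fold change was 1.02 (SE 0.40) with DMSO and 0.61 (SE 0.40) with BI6727, and neither was called. Without DMSO replicate 1 or replicate 2 the DMSO value was 0.88 or 1.15. Without BI6727 replicate 1 the BI6727 value was 0.97, and without replicate 2 it was 0.079. The opposite-strand genes Arhgap9, with 149 counts over the 6 libraries against 244 for Gli1, and Gm47200, with 0 counts, overlap 6.55% of its exonic length.

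Counted over the 9 genes, 3 (Gas1, Cdon and Gli2) were called lower in the DMSO group than in vehicle and 0 higher, where 3.23% of all tested genes were called lower and 2.75% higher. The same 3 genes were called lower in the BI6727 group and 0 higher, against 3.71% and 2.51% of all genes. Both DMSO libraries lay below both vehicle libraries for 7 genes and above for 1, with 31.8% of all genes below and 28.7% above. In the BI6727 group 8 genes lay below vehicle and 0 above, with 35.8% of all genes below and 35.8% above. The median log2 fold change of the 9 genes was -0.53 with DMSO and -0.77 with BI6727, where the median of all tested genes was -0.011 and 0.0049. Because the genes were chosen from this contrast, nothing is read from these counts. The stricter filter of the study, 10 CPM or more in over 3 of the samples, kept Gas1, Smo, Sufu and Gli3, so that Gas1 was then the 1 gene called in each comparison.

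BI6727 against DMSO, with TGF-β1 in both groups, asked whether the drug altered the treated state. None of the 9 genes was called by edgeR, and DESeq2 called 0 as well. Over all tested genes edgeR called 0%, and DESeq2 called 15 genes lower and 0 higher. At an unadjusted p-value below 0.05 stood 2 of the 9 genes (Gas1 and Boc), against 7.13% of all tested genes. These were also the 2 genes whose BI6727 libraries lay below both DMSO libraries, and 0 of the 9 lay above, where 17.7% of all genes were below and 17.4% above. Gas1, at 13.4 and 13.6 normalized CPM against 21.6 and 15.9, had a log2 fold change of -0.47 (95% interval -0.89 to -0.05, edgeR adjusted p = 0.665). Boc, at 1.10 and 1.39 against 2.91 and 1.88, had -0.93 (95% interval -1.76 to -0.10, edgeR adjusted p = 0.667). Neither difference passed the correction over all genes. Over the alternatives the adjusted p of Gas1 ranged from 0.019 to 1.0 and that of Boc from 0.119 to 1.0. Their log2 fold changes were -0.24 and -0.58 without DMSO replicate 1, and -0.68 and -1.22 without replicate 2.

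For the other 7 genes the DMSO and BI6727 libraries overlapped, with edgeR adjusted p between 0.855 and 0.983. The intervals were narrowest for Smo, at 0.04 on the log2 scale (95% interval -0.23 to 0.31), and for Sufu, at 0.02 (95% interval -0.31 to 0.35). Both intervals lie inside a 2-fold change in either direction. Ptch1 had -0.16 (95% interval -0.67 to 0.35), Gli2 had -0.19 (95% interval -0.74 to 0.36), Cdon had -0.20 (95% interval -0.81 to 0.40) and Gli3 had -0.03 (95% interval -0.66 to 0.59). Gli1, measured from 24 to 60 counts in these libraries, had the widest interval, from -1.28 to 0.47 around -0.40, which does not set a 2-fold lower level apart from no difference. A p-value that misses the threshold does not show that the groups were alike. The direction of Cdon, Ptch1 and Gli3 turned without DMSO replicate 1, to 0.20, 0.17 and 0.53, and that of Smo and Sufu turned without replicate 2, to -0.11 and -0.14.

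**Figure D2:**
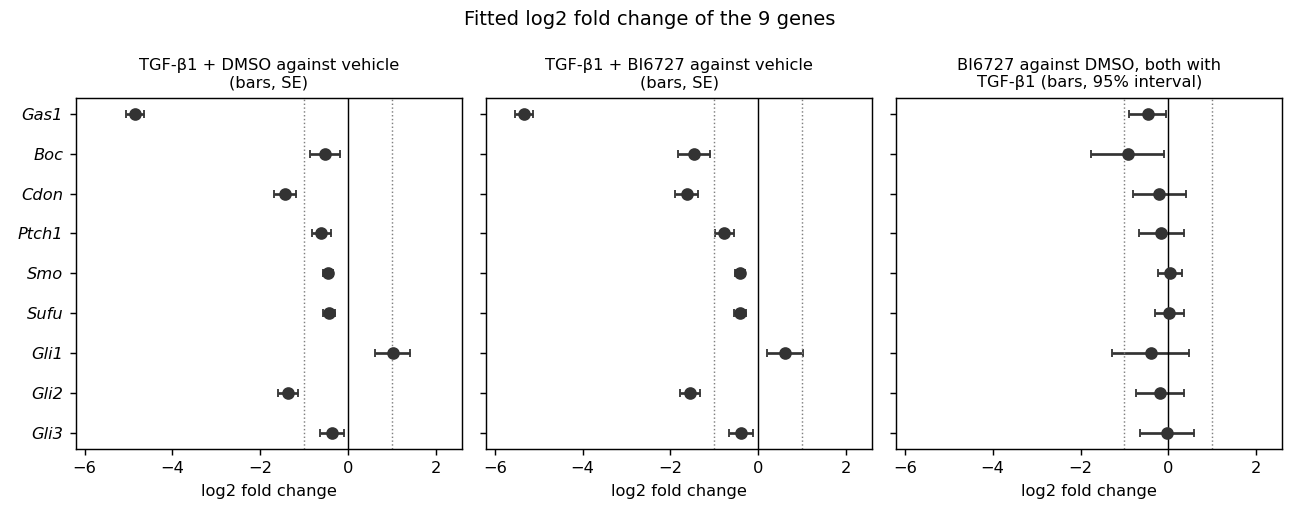
Fitted log2 fold change (x axis) of the 9 genes in the 3 comparisons, with bars for the SE in the comparisons with vehicle and for the 95% interval in BI6727 against DMSO; dotted lines mark a 2-fold change. Gas1 lies at -4.86 and -5.33 against vehicle, and between BI6727 and DMSO the intervals of 7 genes cross 0, Gas1 and Boc being the exceptions.

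Per kilobase of exonic length, which allows levels to be compared between genes, the order of the 9 genes differed between vehicle and the treated groups. In vehicle the mean level of Gas1 was 183 ± 35.1 normalized CPM per kb (SD, n = 2), followed by Smo (47.3 ± 0.192), Sufu (5.50 ± 0.288), Cdon (2.59 ± 0.276), Gli3 (2.19 ± 0.151), Gli2 (1.88 ± 0.098), Ptch1 (0.944 ± 0.066), Boc (0.779 ± 0.152) and Gli1 (0.250 ± 0.038). No neighbours in this order overlapped. In the DMSO group Smo came first at 34.6 ± 4.99 normalized CPM per kb, then Gas1 at 6.34 ± 1.34 and Sufu at 4.06 ± 0.631. From Gli3 (1.70 ± 0.776) through Cdon, Gli2, Ptch1 and Boc to Gli1 (0.508 ± 0.066) each gene overlapped the next. In the BI6727 group the order was Smo (35.6 ± 0.782), Gas1 (4.57 ± 0.042), Sufu (4.13 ± 0.118), Gli3 (1.66 ± 0.084), Cdon (0.829 ± 0.184), Gli2 (0.637 ± 0.176), Ptch1 (0.553 ± 0.025), Gli1 (0.378 ± 0.160) and Boc (0.280 ± 0.046). Cdon and Gli2, Gli2 and Ptch1, and Gli1 and Boc were the neighbours that overlapped there. Among all 14604 tested genes Gas1 ranked 350 by mean level per kb in vehicle, 6928 in the DMSO group and 8027 in the BI6727 group. Smo ranked 1419, 2011 and 1947.

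The shares of the coreceptor transcripts follow from the levels above, the low Gas1 level under TGF-β1 included, and were not tested. In vehicle the summed level of Gas1, Boc and Cdon was 212 and 162 normalized CPM per kb, of which Gas1 made up 98.3% and 98.1%. In the DMSO group the sum was 9.13 and 6.54, with 79.8% and 82.3% from Gas1. In the BI6727 group it was 5.49 and 5.87, with 82.7% and 78.3% from Gas1. Gas1 thus remained the most abundant coreceptor transcript in each library, while the share of Cdon went from 1.31% and 1.48% in vehicle to between 11.2% and 16.3% in the 4 treated libraries. Among the GLI transcripts Gli3 held the largest share in each library, 53.0% and 48.3% in vehicle, 62.4% and 50.5% in the DMSO group, and 68.8% and 56.1% in the BI6727 group. Gli2 held 41.8% and 45.3% in vehicle and between 20.6% and 29.2% in the treated libraries, and Gli1 held 5.15% and 6.43% in vehicle and between 10.6% and 20.3% in the treated libraries. The treated groups overlapped in the shares of Gas1, Cdon, Gli1, Gli2 and Gli3, and for Boc the shares were 7.17% and 6.46% in the DMSO group and 4.51% and 5.32% in the BI6727 group.

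**Figure D3:**
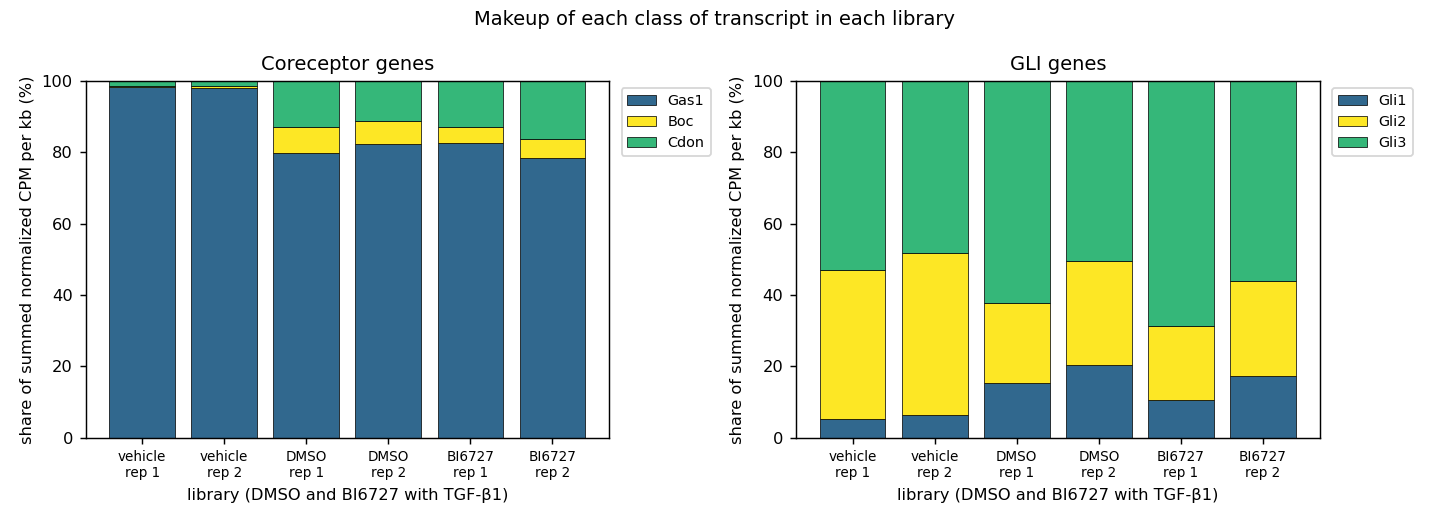
Share of each gene (y axis, percent) in the summed normalized CPM per kb of the coreceptor genes (left) and of the GLI genes (right) in each of the 6 libraries (x axis). Gas1 makes up 98.3% and 98.1% of the coreceptor sum in vehicle and 78.3% to 82.7% in the treated libraries, and the Gli2 share is 41.8% and 45.3% in vehicle and 20.6% to 29.2% in the treated libraries.

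The difference between the DMSO libraries touched all 9 genes. Replicate 1 was above replicate 2 in 9 of 9, by a ratio from 1.20 for Gli1 and Gli2 to 1.96 for Gli3, while it was above replicate 2 in 51.6% of all tested genes. The median log2 ratio was 0.293 over the 3915 tested genes longer than 6 kb and -0.232 over the 5660 shorter than 3 kb, and 5 of the 9 genes were longer than 6 kb. Once a trend on gene length was taken out of every library, the ratio lay between 1.06 for Gli2 and 1.56 for Gli3. Ptch1, with 14185 exonic bases the longest of the 9, went from 1.52 to 1.08, and Gas1, with 2961 bases the shortest, from 1.35 to 1.44. The fitted difference from vehicle with such offsets was -0.39 for Ptch1, -0.23 for Gli3, -1.32 for Cdon, -1.25 for Gli2 and -4.87 for Gas1, and the same 3 genes were called. The part of the length trend in these differences was otherwise not tested.

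**Figure D4:**
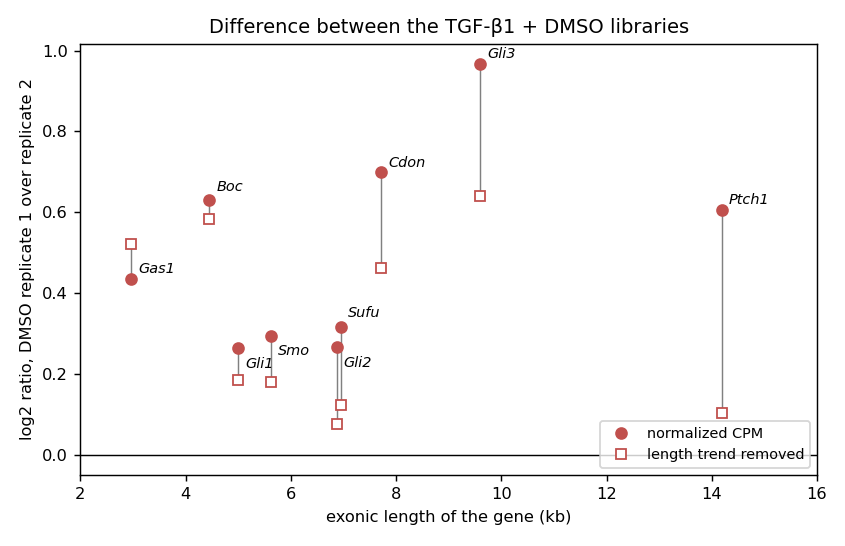
Log2 ratio of DMSO replicate 1 over replicate 2 (y axis) against the exonic length in kb (x axis) of the 9 genes, as normalized CPM (filled) and after each library's trend on length was taken out (open), joined by a line per gene. All 9 filled points lie above 0, and the line is longest for Ptch1, the longest gene.

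Genes alike across the 6 libraries were sought for Gas1, Boc, Cdon and Gli1. By Pearson's correlation of log2 CPM over the 6 libraries, among genes with a mean of at least 10 normalized CPM, those most like Gas1 were H2afy2 (r = 0.9998), Filip1l (r = 0.9996) and Ptx3 (r = 0.9993). Their log2 fold changes from vehicle with DMSO were -0.93, -1.40 and -4.10, so the likeness was one of shape and not of size, and 112 genes had an r over 0.99 with Gas1. Those most like Cdon were Cdc23, Tmem94 and Zgrf1 (r = 0.9996, 0.9991 and 0.9981), and Syde1 (r = 0.994) and Gm5540 (r = 0.993) were among those most like Boc. Those most like Gli1 were Zfp385a, Gtse1 and Kin (r = 0.988, 0.984 and 0.977). An r over 0.99 was found for 36 genes with Cdon, 2 with Boc and 0 with Gli1. Among the 9 genes themselves Smo and Sufu were the most alike (r = 0.991), and Gli1 correlated negatively with each of the other 8, from -0.693 with Gas1 to -0.222 with Boc. These are descriptions over 6 libraries in 3 groups, with the difference between groups and the depth of each library shared by the genes.

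The rest of the pathway was listed by role, with earlier results of these data known. Differences of these genes from vehicle, calls included, are therefore also a description. No ligand transcript was detectable beyond a few counts: Shh had 0 counts in every library, which allows at most 3 counts each, and the highest count was 12 for Ihh and 5 for Dhh. Of 8 genes for ligands and their release, only Hhat, which attaches palmitate to the ligand, and Disp1, which releases it, had enough counts to be tested. Neither was called, with log2 fold changes with DMSO of 0.06 and 0.25. Of 6 other Hedgehog-binding proteins Gpc6 and Gpc4, both glypicans (heparan sulphate proteoglycans of the cell surface), were tested, and the decoy receptor Hhip had at most 2 counts in any library. Gpc6 had 24.3 and 23.2 normalized CPM in vehicle, 7.64 and 5.13 in the DMSO group, and 6.498 and 7.81 in the BI6727 group. All treated libraries lay below both vehicle libraries. Its log2 fold change was -1.90 with DMSO (SE 0.21) and -1.73 with BI6727 (SE 0.21), past the threshold in both. Gpc4 was not called, with -0.19 and -0.26.

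Of 23 listed cytoplasmic regulators of GLI, such as the kinesin Kif7 and the kinases that phosphorylate GLI, 22 were tested and 0 were called by edgeR or DESeq2 against vehicle in either treated group. At an unadjusted p-value below 0.05 stood 6 with DMSO and 7 with BI6727, against 5137 and 5173 of all 14604 tested genes, and the median log2 fold change was -0.17 and -0.15. Of 29 genes for transport into the primary cilium and for its gate, all were tested. With DMSO 1 was called lower and with BI6727 0, against 3.23% and 3.71% of all tested genes. A negative fitted value was found for 25 and 23. The gene called was Dync2li1, a light intermediate chain of the cilium's dynein motor. It had 20.4 and 21.6 normalized CPM in vehicle, 10.2 and 8.94 in the DMSO group and 11.2 and 11.2 in the BI6727 group. It fell by 1.13 on the log2 scale with DMSO (SE 0.15), past the threshold. Its value with BI6727, -0.90 (SE 0.15), was under the 2-fold minimum. Without vehicle replicate 1 or replicate 2, 0 genes of the pathway lists were called lower in either treated group, and without BI6727 replicate 1 or replicate 2 the call of Gpc6 with BI6727 was lost. Without DMSO replicate 1 more genes of these lists were called lower with DMSO, and the share of all genes called in that fit is not given here. The median log2 fold change of the cilium list was -0.40 with DMSO and -0.36 with BI6727, where that of all tested genes was -0.011 and 0.0049. At an unadjusted p-value below 0.05 stood 16 and 15 of these 29 genes, against 5137 and 5173 of all 14604. DESeq2 called 0 of the cilium list with BI6727.

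Of 16 further Hedgehog target genes 10 were tested and 0 were called by edgeR or DESeq2 against vehicle. The unadjusted p-value was below 0.05 for 5 of the 10 with DMSO and 3 with BI6727, against 5137 and 5173 of all 14604 tested genes. The median log2 fold change was 0.10 and 0.19. In each comparison 6 of the 10 had a positive fitted value and 4 a negative one. The forkhead gene Foxc2, named after its values were seen, had 35.9 and 39.9 normalized CPM in vehicle, 80.0 and 68.6 in the DMSO group, and 67.9 and 64.3 in the BI6727 group. The log2 fold change of Foxc2 with DMSO was 0.97 (SE 0.13), under the 2-fold minimum. In BI6727 against DMSO 0 genes of any of these 5 lists were called by edgeR or DESeq2. At an unadjusted p-value below 0.05 stood 1 of the cilium genes, 1 of the targets and 0 of the other 3 lists. Of all 14604 tested genes 1041 were below it.

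**Figure D5:**
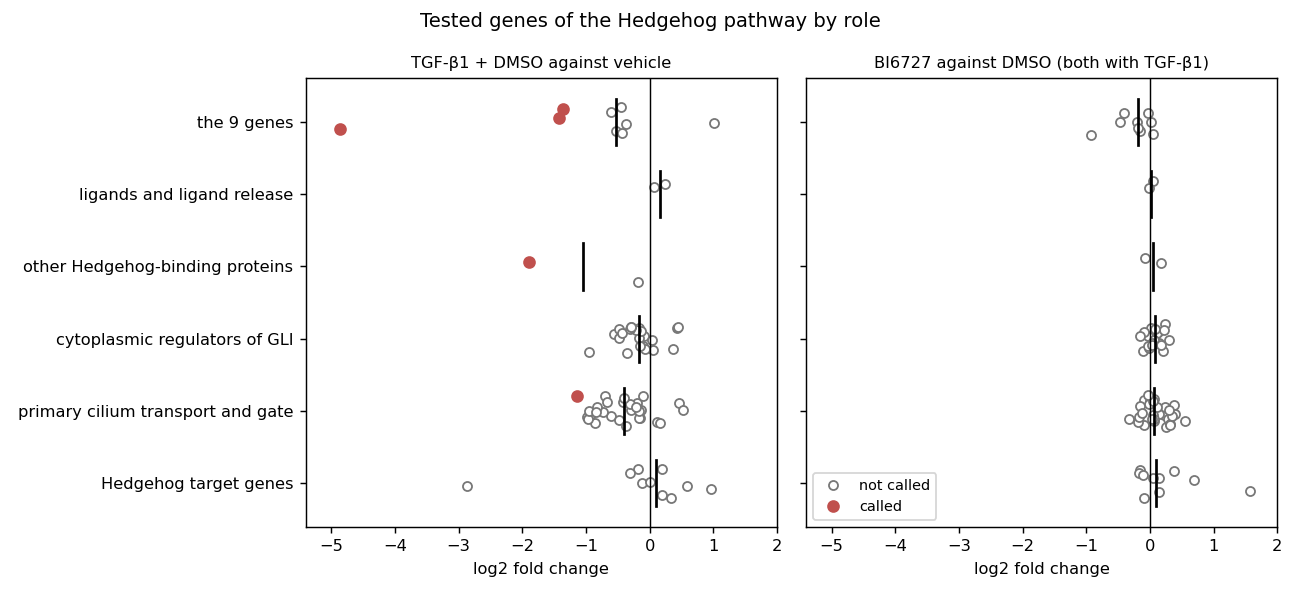
Fitted log2 fold change (x axis) of each tested gene by role in the pathway (y axis, points spread within a row) for the DMSO group against vehicle (left) and for BI6727 against DMSO (right), with filled points for genes called and black bars for the median. Against vehicle the filled points are Gas1, Cdon, Gli2, Gpc6 and Dync2li1, and none is filled on the right.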

How the data were processed

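RNA-seq was analysed in 6 libraries, 2 in each of 3 groups, assigned by the sample labels. The authors mapped 50-base reads to mm10 with Subjunc and counted them on Gencode M20 genes with featureCounts (Subread 1.6.4), and deposited the counts without normalization. The strand setting is not given in the sources used here. Symbols were matched by Ensembl identifier for 54723 of 54752 genes, and 0 columns were left unmapped.

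The groups' counts were fitted by edgeR 4.0.16 under R 4.3.3 (TMM, filterByExpr, quasi-likelihood test, 1 fit of 6 libraries with 3 residual degrees of freedom) with calls at a p-value under 0.01 after Benjamini-Hochberg adjustment and more than a 2-fold change. An SE is the size of the log2 fold change divided by the square root of F. log2 CPM used a prior count of 1. Poisson intervals (95%) and the floor of 3 counts cover counting error only. The code was tested on simulated data. The labels do not say whether replicates are separate cultures, so p-values measure the spread between these samples, which may be technical. The smallest p-value of an exact permutation test with 2 libraries per group is 0.333, so it was not used.

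The 9 genes and all lists, written by hand from known roles, were chosen with earlier results of these data known. Named were the 9 genes, list genes past the threshold whose groups did not overlap, the 3 genes most like Gas1, Boc, Cdon and Gli1, and Acta2 and Plk1. A few genes named by it are not reported here. Named outside it, after their values were seen, were Foxc2, Mycn, Gpc4, Hhat, Disp1, Gas5, Ddit3, Mki67, Pdgfra, Pdgfrb and genes with few or 0 counts. Alternatives were DESeq2 1.42.0, its size factors, other filters, only the 2 groups compared, a replicate block, length offsets (a lowess of span 0.3 on each library), no fold change minimum, and each library left out. Promoters are those of RefSeq on GRCm38.p6. The study's other experiments were not analysed here.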

Additional observations from a re-analysis of the deposited data

How the results depend on the processing

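Of the fitted log2 fold changes of the 9 genes under the alternatives, 351 kept their direction and their side of the threshold, 14 were no longer past it, 3 newly passed it and 13 turned direction. Gas1 was past the threshold against vehicle under every alternative, with values from -5.09 to -4.64 with DMSO and from -5.51 to -5.12 with BI6727. With the filter at 10 CPM the genes of the 9 called lower against vehicle numbered 1 in each treated group, because Cdon and Gli2 were not tested, and the genes of the pathway lists called lower numbered 1 with DMSO and 0 with BI6727. With no fold change minimum 6 pathway genes were called lower and 1 higher with DMSO, and 6 lower and 2 higher with BI6727. Leaving out 1 library at a time, which assumes that the lone library varies like the others, gave 1 to 3 of the 9 genes called lower with DMSO (1 without vehicle replicate 1 or replicate 2) and 1 to 4 with BI6727 (1 without either vehicle library or BI6727 replicate 1). For the pathway lists the number called lower with DMSO rose without DMSO replicate 1 and was 0 without either vehicle library. The shares of all tested genes called in these fits are not given here. The causes were not tested. The log2 fold change of Gli3 with DMSO against vehicle ranged from -0.93 to 0.051. For BI6727 against DMSO the ranges were -0.52 to 0.20 for Cdon, -0.45 to 0.17 for Ptch1, -0.11 to 0.20 for Smo, -0.14 to 0.19 for Sufu, -0.51 to 0.058 for Gli2 and -0.45 to 0.53 for Gli3. Sufu was -0.026 with length offsets and -0.024 with length offsets and the replicate block.

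Replicate numbers in the labels did not pair the libraries: deviations of same-numbered libraries correlated by -0.037, -0.0079 and -0.059 over all tested genes in the 3 pairs of groups. Over genes above 10 CPM the values were -0.110, 0.047 and -0.258, the last between the DMSO and BI6727 groups. With the replicate block 3 of the 9 genes were called lower in each comparison with vehicle and 0 in BI6727 against DMSO. The block turned Gli3 to 0.020 in BI6727 against DMSO and, with length offsets, called 1 pathway gene higher with BI6727. A crossed replicate block, chosen after seeing the data, called 3 of the 9 genes lower with DMSO. It gave 0.013 for Gli3 in BI6727 against DMSO. An alignment of the member proteins was planned and not run. Depth limits Gli1 and Boc most, at 20 to 78 counts per library.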

Other observations

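A list of 8 genes was drawn up around the growth arrest-specific genes, a name that Gas1 carries. It held Gas2, Gas5, Gas6, Gas7 and Pmp22 (also known as Gas3), with Gas2l1 and Gas2l3, which are named for likeness to Gas2, and Ddit3, a growth arrest and DNA damage-inducible gene. All 8 were tested, and 3 were called lower and 0 higher with DMSO against vehicle, where 3.23% of all tested genes were called lower and 2.75% higher. Of the 8, 5 had a negative fitted value and 3 a positive one. The list was drawn up around Gas1 with its low level under TGF-β1 already known, so nothing is read from the numbers called. Gas7, known in neuronal outgrowth, had 205 and 203 normalized CPM in vehicle and 87.8 and 59.3 in the DMSO group, and fell by 1.47 on the log2 scale (SE 0.17). Pmp22, the peripheral myelin protein, had 132 and 117 in vehicle and 59.5 and 53.2 in the DMSO group, and fell by 1.15 (SE 0.12). Gas2, which binds actin and microtubules, had 91.3 and 102 in vehicle and 39.9 and 49.2 in the DMSO group, and fell by 1.12 (SE 0.14). All were below vehicle without overlap, and in size well short of Gas1. In the BI6727 group 4 were called lower, against 3.71% of all tested genes, the fourth being Gas6, a ligand of the TAM receptor kinases. Gas5, a host gene of small nucleolar RNAs named after its values were seen, had 162 and 151 normalized CPM in vehicle and 148 and 227 in the DMSO group, and was not called. Ddit3 went the other way without overlap, with 23.4 and 22.8 in vehicle and 30.0 and 44.2 in the DMSO group. Its log2 fold change was 0.68 (SE 0.18), and it was not called. Between BI6727 and DMSO edgeR called 0 of the 8 and DESeq2 called 0. At an unadjusted p-value below 0.05 stood 2, against 1041 of all 14604 tested genes.

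Of 10 proliferation genes 0 were called by edgeR or DESeq2 in any comparison, with 5, 7 and 1 at an unadjusted p-value below 0.05 in DMSO against vehicle, BI6727 against vehicle and BI6727 against DMSO, where 5137, 5173 and 1041 of all 14604 tested genes were below it. In DMSO against vehicle 3 of the 10 had a positive fitted value and 7 a negative one, with a median log2 fold change of -0.22. Mki67, named after its values were seen, had 135 and 155 normalized CPM in vehicle, and 112 and 65.5 in the DMSO group. Its log2 fold change was -0.71 (SE 0.22), and it does not stand for the list. Plk1, which encodes the target of BI6727, had 96.0 and 103 normalized CPM in vehicle, 70.7 and 68.9 in the DMSO group and 59.6 and 62.6 in the BI6727 group, a log2 fold change of -0.19 (SE 0.11, edgeR adjusted p = 0.740) between BI6727 and DMSO. Of 6 TGF-β1 response genes 5 were called higher than vehicle with DMSO and 5 with BI6727, against 2.75% and 2.51% of all tested genes. Between BI6727 and DMSO 0 were called by edgeR or DESeq2. The unadjusted p-value was below 0.05 for 2 of the 6, against 1041 of all 14604 tested genes.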
